A study of Homo sapiens with 6 samples.

Results

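The zinc finger genes of human chromosome 19 were taken as all protein-coding genes of that chromosome whose symbol is ZNF followed by a number and at most 1 letter, and there were 246 of them among 61279 annotated genes, of which 19954 are protein-coding. They were measured by RNA sequencing in cells labelled T47D, a hormone receptor-positive breast cancer line. The line has a wild-type genotype in the labels and no engineered allele, but the authors describe it as PIK3CA-mutant. There were 3 libraries labelled MI-503, for cells given 4 µM MI-503 for 24 hours, and 3 libraries labelled DMSO, for cells given the solvent for 24 hours. MI-503 is a small molecule that keeps menin from binding MLL1, a histone H3K4 methyltransferase, and the experiment was made to find which genes change when MLL1 is inhibited. The replicates of a label are separate experiments with a single cell line, so the p-values describe the spread among cultures only.

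Zinc finger proteins of this family carry tandem C2H2 fingers, in which paired cysteines and histidines hold a zinc ion and neighbouring fingers read successive bases of DNA. Many also carry a KRAB domain near the amino terminus, which binds TRIM28 (KAP1), and TRIM28 in turn brings the H3K9 methyltransferase SETDB1 and heterochromatin proteins to the bound site. Their best known targets are transposable elements, and the family has grown by tandem duplication, so that chromosome 19 holds long runs of similar neighbouring genes. The 3′ exons of zinc finger genes are themselves marked with H3K9me3 in many cells.

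The labels of the libraries were checked before any comparison. Of 14 markers of luminal breast cells, 13 were higher and none was lower with the MI-503 label, and all 12 prostate markers tested were lower, the remaining prostate marker NPY having no read in any library. The estrogen receptor gene ESR1 averaged 239 ± 46.7 CPM (reads of the gene scaled to all reads in genes of the library; SD, n = 3) with the MI-503 label and 0.068 ± 0.118 CPM with the DMSO label, while the prostate antigen gene KLK3 had 0 CPM with the MI-503 label and 3860 ± 21.7 CPM with the DMSO label. The libraries labelled DMSO therefore lack the defining markers of T47D and go against their label. No result can be given without them, since they are all the control libraries, and treatment with MI-503 cannot be told apart from any other difference between the groups of libraries. Higher and lower below refer to the labels alone. MI-503 acts on the contact of menin and MLL1. KMT2A, which encodes MLL1, was at 98.2 CPM with the MI-503 label and 90.9 CPM with the DMSO label and did not pass the test. MEN1, which encodes menin, was at 136 CPM with the MI-503 label and 61.1 CPM with the DMSO label and was called higher (log2 fold change 1.27).

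The sequences just upstream of 7 members are shown first, chosen after their values were seen, as examples of members with wide differences between the labels. ZNF728, ZNF471, ZNF98 and ZNF729, which were silent with 1 label, had no promoter in the table used, and ZNF69, with 8 CG dinucleotides in its promoter, is not shown. The first 5 lie in 1 run of neighbouring genes at 19.7 to 24.1 Mb, ZNF90, ZNF486 and ZNF626 being low or without reads with the DMSO label and ZNF714 and ZNF208 low or without reads with the MI-503 label. The other two, ZNF677 and ZNF135, lie elsewhere on the chromosome, and each was near 0 with 1 of the labels. Each sequence runs 5′ to 3′ on the strand of the gene and ends just before the annotated gene, in RefSeq coordinates of GRCh38.p14: ZNF90 chr19:20077750-20077993 on the plus strand, ZNF486 chr19:20166964-20167213 on the plus strand, ZNF626 chr19:20661597-20661821 on the minus strand, ZNF714 chr19:21081953-21082158 on the plus strand, ZNF208 chr19:22010950-22011193 on the minus strand, ZNF677 chr19:53254899-53255073 on the minus strand and ZNF135 chr19:58058989-58059238 on the plus strand. Capitals mark each CG dinucleotide, the site of DNA methylation in human cells.
ZNF90: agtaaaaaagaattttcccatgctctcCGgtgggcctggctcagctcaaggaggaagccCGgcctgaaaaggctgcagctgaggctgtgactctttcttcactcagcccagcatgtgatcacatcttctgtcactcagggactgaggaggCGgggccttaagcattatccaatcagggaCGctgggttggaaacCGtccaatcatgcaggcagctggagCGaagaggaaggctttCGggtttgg
ZNF486: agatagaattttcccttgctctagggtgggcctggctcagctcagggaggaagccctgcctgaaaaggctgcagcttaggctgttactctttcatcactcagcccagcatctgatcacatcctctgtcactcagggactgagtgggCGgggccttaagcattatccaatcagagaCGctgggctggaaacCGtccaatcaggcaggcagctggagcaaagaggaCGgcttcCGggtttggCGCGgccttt
ZNF626: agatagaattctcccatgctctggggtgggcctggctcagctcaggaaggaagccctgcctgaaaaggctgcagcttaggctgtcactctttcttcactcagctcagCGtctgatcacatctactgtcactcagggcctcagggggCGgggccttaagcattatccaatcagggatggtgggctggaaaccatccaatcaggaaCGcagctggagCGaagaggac
ZNF714: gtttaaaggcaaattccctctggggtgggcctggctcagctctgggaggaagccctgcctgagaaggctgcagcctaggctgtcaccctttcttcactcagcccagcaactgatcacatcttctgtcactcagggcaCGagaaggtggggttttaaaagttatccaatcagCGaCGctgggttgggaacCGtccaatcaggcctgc
ZNF208: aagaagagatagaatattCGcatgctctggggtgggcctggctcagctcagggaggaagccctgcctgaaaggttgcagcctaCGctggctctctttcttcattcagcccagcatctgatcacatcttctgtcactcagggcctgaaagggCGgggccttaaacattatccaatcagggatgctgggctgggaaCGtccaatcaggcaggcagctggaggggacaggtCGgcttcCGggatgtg
ZNF677: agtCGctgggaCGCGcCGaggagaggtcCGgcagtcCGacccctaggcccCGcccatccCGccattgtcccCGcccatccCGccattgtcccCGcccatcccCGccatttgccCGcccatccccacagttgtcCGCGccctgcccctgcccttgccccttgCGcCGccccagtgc
ZNF135: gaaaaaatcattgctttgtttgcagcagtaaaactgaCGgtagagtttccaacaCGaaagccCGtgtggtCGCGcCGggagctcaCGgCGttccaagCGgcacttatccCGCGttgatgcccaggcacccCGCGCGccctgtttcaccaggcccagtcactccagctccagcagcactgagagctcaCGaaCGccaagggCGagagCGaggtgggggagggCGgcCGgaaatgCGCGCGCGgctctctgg
The first 5 were alike, with 84.0% to 92.1% identical bases in pairwise alignments, and held 4 to 7 CG each. ZNF677 held 17 CG in 175 bases and ZNF135 held 24 in 250 bases, and these 2 aligned to the first 5 with 54.4% to 69.7% identity. The letters ccaatca occur in each of the first 5, and CCAAT on either strand was found 2 times in each of them and in neither of the other two. Similar sequences thus stood upstream of genes that were higher and of genes that were lower with the MI-503 label.

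Most members were expressed, at modest levels. Of the 246, 205 had at least 1 CPM in all 6 libraries, 65 had at least 10 CPM in all 6, and 12 exceeded a mean of 50 CPM with at least 1 label. The median member had a mean of 9.45 CPM, against 10.5 CPM for all protein-coding genes. For the genes tested below, which had passed a filter on low counts, the median was 22.1 CPM. Summed over all members, the libraries labelled MI-503 gave 2835, 2791 and 2669 CPM, and the libraries labelled DMSO gave 4060, 3627 and 3697 CPM. Every MI-503 sum lay below every DMSO sum, and zinc finger genes of chromosome 19 took 0.276% ± 0.00862 of the reads in genes with the MI-503 label and 0.379% ± 0.0232 with the DMSO label (SD, n = 3 each), a log2 ratio of -0.46. On the TPM scale, which divides by transcript length, the ratio was -0.29, and on TMM-scaled CPM it was -0.34. In bulk RNA, fewer cells that express a gene and less RNA of it per cell cannot be told apart.

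Differences were tested gene by gene with edgeR's quasi-likelihood test across all 16442 genes that passed its filter on low counts, and a gene was called at a Benjamini-Hochberg adjusted p under 0.05. Of the 246 members, 240 passed the filter, 37 were higher with the MI-503 label and 79 were lower. Among all genes tested, 62.9% were called, 31.7% higher and 31.2% lower, so the 15.4% of members called higher lay below the background share, while the 32.9% called lower was near it. The median log2 fold change of the members was -0.28, and it was -0.0044 over all genes tested. Large differences were less frequent than among all genes tested too, with 16 members (6.67%) higher by a log2 fold change over 2, against 12.6% of all genes, and 16 members (6.67%) lower by as much, against 11.7%. Among protein-coding genes tested these shares were 12.6% and 9.22%, and among zinc finger genes of other chromosomes 10.2% and 8.47%. Other protein-coding genes of chromosome 19 had 14.9% and 5.30%, so large falls were not rarer in the members than in the rest of the chromosome. In 38 members every MI-503 library lay above every DMSO library and in 113 every MI-503 library lay below, where the background is 31.7% and 37.4% of genes tested. The filter passes a gene that is expressed with only 1 label, so the 6 members left out, ZNF560, ZNF723, ZNF536, ZNF404, ZNF534 and ZNF835, are ones with at most 9 reads over the libraries of either label.

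**Figure D1:**
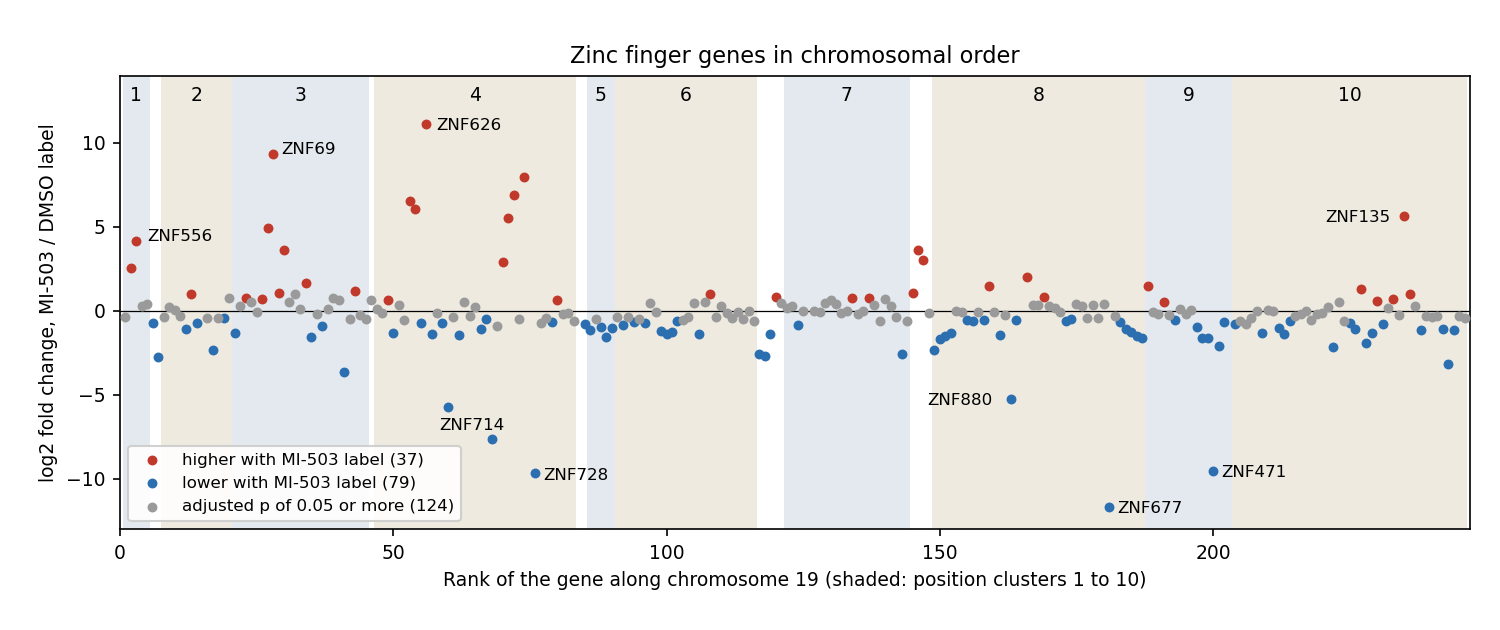
Fitted log2 fold change (MI-503 over DMSO label) of the 240 members tested, in their order along chromosome 19, with the 10 position clusters shaded and numbered. Red points were called higher (37), blue points lower (79) and grey points neither (124), and for members without a read with 1 label the plotted value depends on the prior count of the fit. Most points lie within 1 of 0, with isolated high and low points in clusters 3, 4, 8, 9 and 10.

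Members were counted as silent with a label by a fixed rule, under 0.1 CPM in every library of a label and at least 1 CPM in every library of the other. With the MI-503 label 3 members (1.22%) were silent, beside 1.14% of all protein-coding genes, and with the DMSO label 4 members (1.63%), beside 1.53%. The members thus held about the background share of genes that were on with 1 label only. A further 3 members, ZNF536, ZNF723 and ZNF835, were under 0.1 CPM in all 6 libraries, beside 19.9% of protein-coding genes.

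The 3 members silent with the MI-503 label were ZNF677, ZNF728 and ZNF471. ZNF677 (chr19:53235381-53254898, minus strand) and ZNF471 (chr19:56507850-56530221, plus strand) encode KRAB zinc finger proteins that have been described as tumor suppressor candidates with methylated promoters in several carcinomas. ZNF677 had 0, 0 and 0 CPM with the MI-503 label, against 27.2, 17 and 18 CPM with the DMSO label. It had no read with the MI-503 label and 1299 reads with the DMSO label, at least 411-fold lower against a floor of 3 reads for the MI-503 libraries together (adjusted p = 2.59e-06, edgeR). ZNF471 had 0, 0 and 0.0579 CPM with the MI-503 label, against 20.3, 18.6 and 16.7 CPM with the DMSO label. A single read was seen with the MI-503 label against 1152 with the DMSO label, a DMSO-to-MI-503 ratio of 1094 (95% counting interval 196 to 43229, adjusted p = 3.2e-07, edgeR). ZNF728 (chr19:22974883-23003176, minus strand), a gene of the run at 19.7 to 24.1 Mb, had 0, 0 and 0 CPM with the MI-503 label, against 6.56, 4.73 and 4.47 CPM with the DMSO label. That is 0 against 328 reads and at least 104-fold lower (adjusted p = 2.16e-05, edgeR). The rule itself keeps the groups of these 3 from overlapping. The intervals and bounds account for counting error alone, as several reads can stem from 1 molecule.

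The 4 members silent with the DMSO label were ZNF626, ZNF69, ZNF98 and ZNF729, of which all but ZNF69 lie in the run at 19.7 to 24.1 Mb. ZNF626 (chr19:20619939-20661596, minus strand) had 10.7, 15.6 and 14.1 CPM with the MI-503 label, against 0, 0 and 0 CPM with the DMSO label. With 786 reads against none it was at least 276-fold higher with the MI-503 label (adjusted p = 2.37e-06, edgeR). ZNF69 (chr19:11887782-11914329, plus strand) had 3.46, 3.75 and 4.34 CPM with the MI-503 label, against 0, 0 and 0 CPM with the DMSO label. Its 225 reads against none made it at least 79.0-fold higher (adjusted p = 2.13e-05, edgeR). ZNF98 (chr19:22391019-22532485, minus strand) had 4.09, 5.21 and 3.07 CPM with the MI-503 label, against 0, 0 and 0.0952 CPM with the DMSO label. The 2 reads with the DMSO label both fell in replicate 3, and 246 against 2 reads gave a ratio of 130 (95% counting interval 35.5 to 1076, adjusted p = 3.25e-05, edgeR). ZNF729 (chr19:22286441-22317176, plus strand) had 1.68, 1.97 and 1.16 CPM with the MI-503 label, against 0, 0 and 0.0952 CPM with the DMSO label, and it also had 2 DMSO reads, both in replicate 3. Its 96 against 2 reads gave a ratio of 50.6 (95% counting interval 13.6 to 424, adjusted p = 0.000209, edgeR). Genes of this run have similar neighbours, among which salmon may divide a read, so the few reads of a silent gene can belong to a paralog and the level of an expressed one is uncertain. A read-level assignment was not tested.

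A few members lay just outside the rule. ZNF208, which has the most fingers of all members (36 by pattern), had 0, 0 and 0 CPM with the MI-503 label, against 1.16, 0.712 and 1.9 CPM with the DMSO label. It had no MI-503 read and missed the rule through DMSO replicate 2 alone. ZNF99 was the reverse case, with 0.909, 1.47 and 2.03 CPM with the MI-503 label, against 0, 0 and 0 CPM with the DMSO label, where MI-503 replicate 1 was just under 1 CPM. ZNF90 had 9.41, 9.26 and 7.24 CPM with the MI-503 label, against 0.139, 0 and 0.143 CPM with the DMSO label, so that 2 of the DMSO libraries lay just above the limit of 0.1 CPM. ZNF439 had 3.18, 2.28 and 3.01 CPM with the MI-503 label, against 0.279, 0 and 0 CPM with the DMSO label, and DMSO replicate 1 kept it out. All 4 were called (ZNF208 adjusted p = 0.000424, ZNF99 adjusted p = 0.000179, ZNF90 adjusted p = 6.9e-06 and ZNF439 adjusted p = 0.000648, edgeR), with no overlap between the groups.

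**Figure D2:**
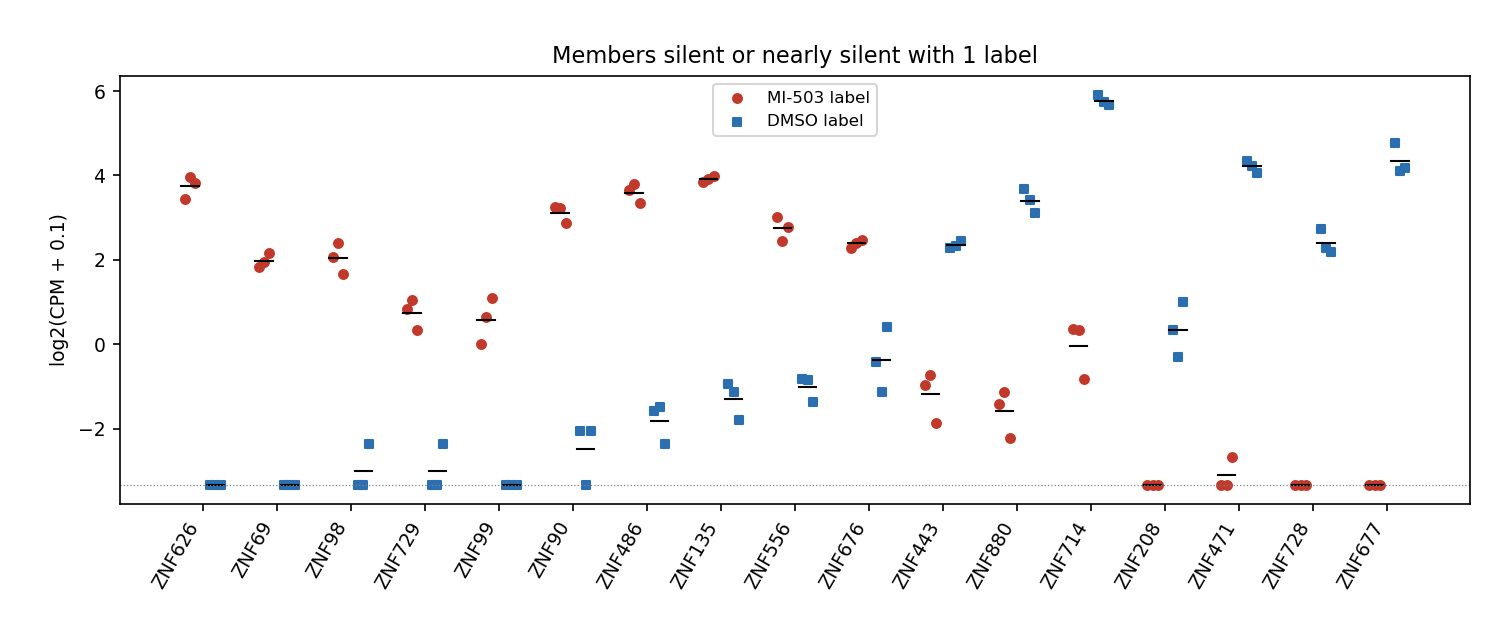
Levels of 17 members that were silent or nearly silent with 1 label, as log2(CPM + 0.1) in each library, with red circles for the 3 MI-503 libraries at the left and blue squares for the 3 DMSO libraries at the right of each gene. Black bars are means of 3 libraries on this scale and the dotted line is 0 CPM. For ZNF626 all MI-503 libraries lie at 10.7 to 15.6 CPM and all DMSO libraries on the dotted line, and for ZNF677 the MI-503 libraries lie on the line and the DMSO libraries at 17 to 27.2 CPM.

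Other members were low but present with 1 label. ZNF486, the next member after ZNF90, had 12.4, 13.7 and 10.1 CPM with the MI-503 label, against 0.232, 0.254 and 0.0952 CPM with the DMSO label (log2 fold change 6.04 with SE 0.40 and adjusted p = 1.14e-06). ZNF135 near the end of the long arm had 14.2, 14.9 and 15.8 CPM with the MI-503 label, against 0.418, 0.356 and 0.19 CPM with the DMSO label (log2 fold change 5.63 with SE 0.34 and adjusted p = 5.88e-07). ZNF556 had 8.05, 5.37 and 6.78 CPM with the MI-503 label, against 0.465, 0.458 and 0.286 CPM with the DMSO label (log2 fold change 4.17 with SE 0.39 and adjusted p = 1.23e-05). These 3 were tightly grouped within each label, and the lowest MI-503 library of each was at least 10 times its highest DMSO library. ZNF676 had 4.77, 5.21 and 5.45 CPM with the MI-503 label, against 0.651, 0.356 and 1.24 CPM with the DMSO label (log2 fold change 2.88 with SE 0.45 and adjusted p = 0.000354), a smaller gap. The members of this paragraph were chosen among called members whose groups did not overlap. On counts scaled by transcript length the log2 fold change of ZNF486 was 5.32.

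Among the falls by a log2 fold change under -3, ZNF714 had the highest DMSO level, with 1.18, 1.16 and 0.463 CPM with the MI-503 label, against 59.8, 53.7 and 50.5 CPM with the DMSO label (log2 fold change -5.71 with SE 0.31 and adjusted p = 3.01e-07). Its 57 reads with the MI-503 label stand against 3403 with the DMSO label, so it was present with both labels but at about the limit of 1 CPM with the MI-503 label. ZNF880 had 0.273, 0.354 and 0.116 CPM with the MI-503 label, against 12.7, 10.5 and 8.57 CPM with the DMSO label (log2 fold change -5.24 with SE 0.42 and adjusted p = 4.43e-06). ZNF443 had 0.409, 0.506 and 0.174 CPM with the MI-503 label, against 4.74, 4.94 and 5.38 CPM with the DMSO label (log2 fold change -3.63 with SE 0.44 and adjusted p = 6.8e-05). These 3 were chosen among called members whose groups did not overlap. On counts scaled by transcript length the log2 fold change was -1.59 for ZNF443 (adjusted p = 0.0141, edgeR) and -4.33 for ZNF880, so the size of these falls, that of ZNF443 above all, depended on the scale.

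By position, consecutive members no more than 500 kb apart were joined, which gave 10 clusters of at least 5 members that together held 232 members, with 14 members outside. The clusters are numbered 1 to 10 from the short-arm end to the long-arm end, in GRCh38. Neighbours and rows below are consecutive members, and genes with other symbols can lie between them. Cluster 4, at 19.7 to 24.1 Mb and with 37 members over 4.46 Mb the longest, held 9 higher and 11 lower members among 36 tested (25% and 30.6%, beside 31.7% and 31.2% of all genes). By a log2 fold change over 2, 7 of its members were higher and 3 were lower (19.4% and 8.33%, beside 12.6% and 11.7% of all genes). These were interleaved along the chromosome. In order, ZNF90 and ZNF486 were higher, ZNF737 was lower (log2 fold change -0.73), ZNF626 was higher and ZNF66 was lower (-1.37). Farther along came ZNF714, lower, then ZNF100, ZNF43 and ZNF208, all lower (-1.10 and -0.51 for ZNF100 and ZNF43), then after ZNF257 the neighbours ZNF676, ZNF729 and ZNF98, all higher, then after ZNF492 the higher ZNF99, and after the untested ZNF723 the lower ZNF728. The median of the cluster was -0.34, so its direction as a whole was close to that of all members. Its summed level was 330, 342 and 283 CPM with the MI-503 label, against 467, 442 and 416 CPM with the DMSO label, and the ranges did not overlap.

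Cluster 3, at 11.5 to 12.6 Mb, had the largest share of higher calls of the clusters with over 5 members, with 8 of 25 higher and 4 lower (32% and 16%, beside 31.7% and 31.2% of all genes) and a median log2 fold change of 0.50. There 5 neighbours in a row were higher, over 166 kb, namely ZNF440 (0.71), ZNF439, ZNF69, ZNF700 (1.07) and ZNF763 (3.61). ZNF763 had 3.23, 4.56 and 4.4 CPM with the MI-503 label, against 0.558, 0.356 and 0.143 CPM with the DMSO label. ZNF443, the largest fall of the cluster, lies farther along. The summed level of the cluster was 237, 234 and 215 CPM with the MI-503 label and 233, 207 and 207 CPM with the DMSO label, which overlapped. In the small cluster 1, at 2.82 to 2.94 Mb, the neighbours ZNF555 and ZNF556 were higher, 40% of 5 tested, beside 31.7% of all genes. The other 3 members were not called. ZNF555 had 7.23, 5.72 and 5.16 CPM with the MI-503 label, against 1.53, 0.967 and 0.857 CPM with the DMSO label (log2 fold change 2.54 with SE 0.37 and adjusted p = 0.000213).

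Cluster 2, at 8.51 to 9.79 Mb, held 1 higher and 4 lower among 12 tested (8.33% and 33.3%, beside 31.7% and 31.2% of all genes). ZNF121 was its largest fall and one of the highest-expressed members, with 20.6, 17.9 and 14.6 CPM with the MI-503 label, against 79.8, 70.2 and 137 CPM with the DMSO label (log2 fold change -2.31 with SE 0.27 and adjusted p = 5.53e-05). All MI-503 libraries were below all DMSO libraries, and DMSO replicate 3 was well above the other two. ZNF177, the only member called higher there, had 3.82, 2.89 and 2.78 CPM with the MI-503 label, against 1.63, 2.04 and 1.48 CPM with the DMSO label (log2 fold change 1.01 with SE 0.35 and adjusted p = 0.0302). Its groups did not overlap, but the call was lost without any one of 5 libraries (MI-503 replicate 1 or 2, or DMSO replicate 1, 2 or 3), with an adjusted p of 0.0766, 0.0521, 0.069, 0.0501 and 0.0666 in that order.

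Falls made up nearly all the calls of clusters 5 and 6. Cluster 5, at 34.7 to 35 Mb, had 4 lower and 0 higher of 5 tested (80% and 0%, beside 31.2% and 31.7% of all genes). The lower ones were ZNF302 (-1.15), ZNF599 (-0.95), ZNF30 (-1.53) and ZNF792 (-1.04). ZNF30 had 3.27, 4.4 and 3.82 CPM with the MI-503 label, against 12.1, 12.8 and 11.2 CPM with the DMSO label (log2 fold change -1.53 with SE 0.24 and adjusted p = 0.000357), with a narrow spread in each label and no overlap. The sum of its 5 members was 25.9, 35.1 and 34.8 CPM with the MI-503 label and 78.4, 70.6 and 61.6 CPM with the DMSO label. Cluster 6, at 36.2 to 37.8 Mb, had 1 higher and 8 lower of 26 (3.85% and 30.8%, where the background is 31.7% and 31.2%), 4 of the lower ones in a row over 202 kb (ZNF850, ZNF790, ZNF345 and ZNF829). ZNF790 had 1.41, 3.09 and 2.66 CPM with the MI-503 label, against 7.3, 7.38 and 5.47 CPM with the DMSO label (log2 fold change -1.38 with SE 0.35 and adjusted p = 0.0065), also without overlap. The rise was ZNF875, which had 78, 52.4 and 48.3 CPM with the MI-503 label, against 30.8, 36.7 and 31.1 CPM with the DMSO label (log2 fold change 0.98 with SE 0.22 and adjusted p = 0.00267), with no overlap although MI-503 replicate 1 stood above the others.

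Cluster 7, at 43.5 to 44.5 Mb, had the fewest calls of the clusters with over 5 members. There 2 of 22 members tested were higher and 2 lower (9.09% each, beside 31.7% and 31.2% of all genes), and its median log2 fold change was 0.0094. ZNF226 had 18.1, 17.7 and 16 CPM with the MI-503 label, against 8.65, 11.3 and 13.3 CPM with the DMSO label (log2 fold change 0.76 with SE 0.22 and adjusted p = 0.0115), without overlap. ZNF229 had 1.05, 2.02 and 2.14 CPM with the MI-503 label, against 11.5, 9.77 and 12 CPM with the DMSO label (log2 fold change -2.57 with SE 0.33 and adjusted p = 9.03e-05), the largest fall of the cluster. On counts scaled by transcript length it was -1.83 (adjusted p = 0.0145, edgeR). The summed level was 121, 124 and 124 CPM with the MI-503 label and 132, 134 and 140 CPM with the DMSO label. The other lower member was ZNF428 (-0.83) and the other higher one ZNF224, described below.

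Cluster 8, at 51.6 to 53.6 Mb, had the most falls, with 18 lower and 3 higher of 38 tested (47.4% and 7.89%, beside 31.2% and 31.7% of all genes). A row of 4 falls, ZNF175, ZNF577, ZNF649 and ZNF613 (log2 fold changes -2.35 to -1.33), opens the cluster, and a row of 5, ZNF525, ZNF765, ZNF761, ZNF813 and ZNF331 (-1.65 to -0.64), closes it. ZNF175 had 1.77, 2.43 and 2.49 CPM with the MI-503 label, against 14.6, 11.5 and 10.9 CPM with the DMSO label, without overlap. ZNF677 and ZNF880, described above, lie between these rows. The largest rise was ZNF578, with 4.55, 5.57 and 5.91 CPM with the MI-503 label, against 2.28, 0.56 and 1.43 CPM with the DMSO label (log2 fold change 2.01 with SE 0.47 and adjusted p = 0.00382). The DMSO libraries of ZNF578 were spread widely but stayed below the MI-503 libraries.

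Clusters 9 and 10 close the long arm. In cluster 9, at 55.5 to 56.7 Mb, 7 of 15 were lower and 2 higher (46.7% and 13.3%, where the background is 31.2% and 31.7%). In the order of the members, 6 of the falls were consecutive over 251 kb (ZNF582, ZNF583, ZNF667, ZNF471, ZNF470 and ZNF71), the longest row of member calls in 1 direction. ZNF470, the next member after the silent ZNF471, had 3.5, 4.3 and 4.46 CPM with the MI-503 label, against 23.7, 18.9 and 14.6 CPM with the DMSO label (log2 fold change -2.11 with SE 0.26 and adjusted p = 6.74e-05). It was lowered but plainly present with the MI-503 label. ZNF628, the largest rise there, had 20.5, 14.1 and 20.6 CPM with the MI-503 label, against 6.88, 6.82 and 7.81 CPM with the DMSO label (log2 fold change 1.48 with SE 0.23 and adjusted p = 0.000327). In cluster 10, at 57.2 to 58.5 Mb, 15 of 43 were lower and 5 higher (34.9% and 11.6%), among the lower ones ZNF132, a gene reported as methylated in prostate cancer, with 0.273, 0.354 and 0.753 CPM with the MI-503 label, against 4.7, 3.51 and 5.19 CPM with the DMSO label (log2 fold change -3.18 with SE 0.47 and adjusted p = 0.000224). Both genes separated the labels without overlap. Neighbouring genes with shared exons or opposite strands cannot be told apart where the libraries do not record strand, and the strand setting is not given in the sources used here.

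Of the 14 members outside the clusters, 13 were tested, with 4 higher and 6 lower (30.8% and 46.2%, beside 31.7% and 31.2% of all genes). The neighbours ZNF546, ZNF780B and ZNF780A (chr19:39984134-40090943) were all lower (log2 fold changes -2.68 to -1.39). ZNF780B had 5.09, 4.15 and 3.42 CPM with the MI-503 label, against 38, 28.2 and 22.4 CPM with the DMSO label. ZNF358 (chr19:7515292-7521025, plus strand) had 11.4, 16.2 and 12.3 CPM with the MI-503 label, against 135, 90.6 and 60.7 CPM with the DMSO label (log2 fold change -2.73 with SE 0.29 and adjusted p = 2.98e-05). ZNF358 made the largest single contribution to the difference of the sums, -82.0 of -1030 CPM, followed by ZNF121 with -77.9, ZNF146 with -67.5 and ZNF714 with -53.7 CPM. The DMSO libraries of ZNF358 differed widely among themselves, but all were far above the MI-503 libraries. In total there were 3 rows of 3 or more consecutive members called higher and 9 called lower, given as a description only. Rows were joined by order whatever the distance, and the higher row of ZNF296, ZNF541 and ZNF114, outside the clusters, spanned 3216 kb.

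**Figure D3:**
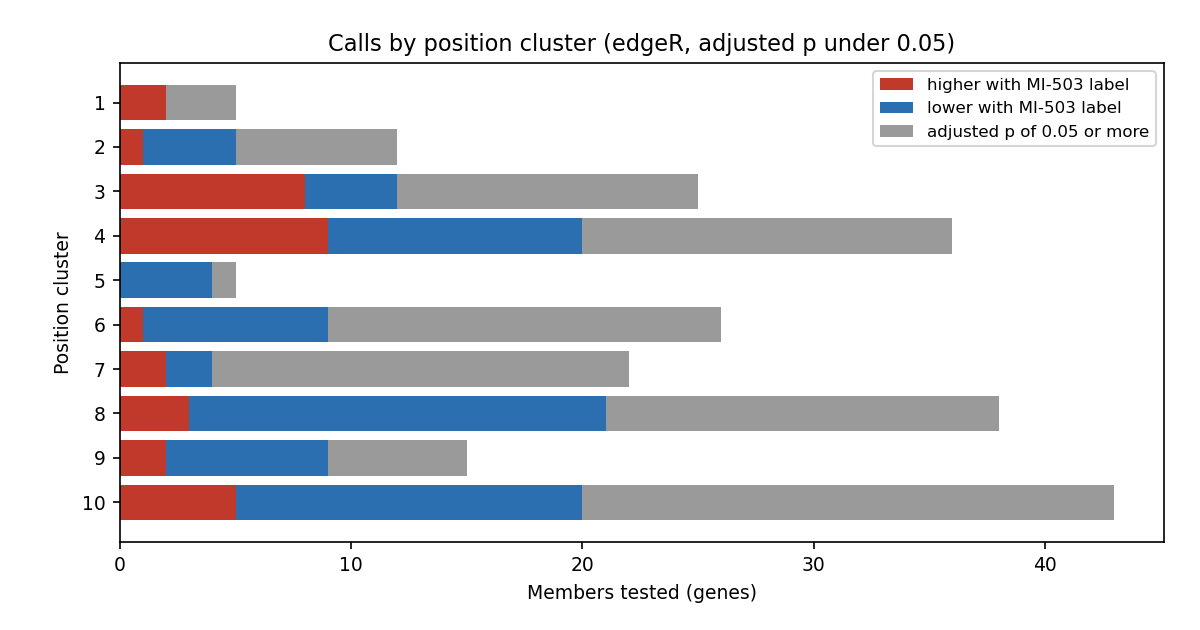
Members tested in each position cluster (1 to 10, from the short-arm end at the top to the long-arm end at the bottom), as stacked bars of the number called higher (red), lower (blue) or neither (grey). Cluster 8 has 3 higher and 18 lower, cluster 3 has 8 higher and 4 lower, and cluster 7 has 18 of 22 members uncalled.

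The 5 members with the most reads were ZNF146, ZNF587, ZNF83, ZNF121 and ZNF444. ZNF146 (OZF), a protein made almost wholly of fingers and often overexpressed in carcinomas, had 67.6, 74.6 and 69.7 CPM with the MI-503 label, against 155, 136 and 123 CPM with the DMSO label (log2 fold change -0.85 with SE 0.15 and adjusted p = 0.000705), so the labels did not overlap. Scaled by length, ZNF146 was at 41.3 TPM with the MI-503 label and 72.6 TPM with the DMSO label, the highest TPM of any member with the DMSO label. ZNF444, a SCAN-domain factor, had 55.7, 53 and 51.8 CPM with the MI-503 label, against 53.4, 55.5 and 60.6 CPM with the DMSO label (log2 fold change 0.04 with SE 0.15 and adjusted p = 0.819) and the labels overlapped. ZNF587 had 80, 75.5 and 63.7 CPM with the MI-503 label, against 52.3, 42.6 and 64.7 CPM with the DMSO label (log2 fold change 0.58 with SE 0.19 and adjusted p = 0.0233), and DMSO replicate 3 lay within the MI-503 range. ZNF83 had 103, 69.1 and 44.1 CPM with the MI-503 label, against 41.1, 39 and 55.4 CPM with the DMSO label (log2 fold change 0.80 with SE 0.29 and adjusted p = 0.0351), with overlapping libraries and a wide spread with the MI-503 label. The call of ZNF587 was lost without MI-503 replicate 1 (adjusted p = 0.0636), MI-503 replicate 2 (0.0629) or DMSO replicate 2 (0.103), and that of ZNF83 without MI-503 replicate 1 (0.137), MI-503 replicate 2 (0.0574), DMSO replicate 1 (0.084) or DMSO replicate 2 (0.12) or with upper-quartile scaling (0.0547), by the same edgeR test.

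Of 9 members with well-studied roles, 5 were called, where 62.9% of all genes were. ZNF91, which represses SVA elements, had 31.1, 27.5 and 22 CPM with the MI-503 label, against 64, 42.5 and 33.6 CPM with the DMSO label (log2 fold change -0.68 with SE 0.26 and adjusted p = 0.0405), and the groups did not overlap, though MI-503 replicate 1 came near the lowest DMSO library. That call was lost without MI-503 replicate 2 (adjusted p = 0.0943) or 3 (0.143) or DMSO replicate 1 (0.162) or 2 (0.0612), and on counts scaled by transcript length (log2 fold change -0.33, adjusted p = 0.326). ZNF93, which binds and represses L1 elements, had 9.55, 13 and 10.8 CPM with the MI-503 label, against 9.44, 9.21 and 10.4 CPM with the DMSO label (log2 fold change 0.32 with SE 0.22 and adjusted p = 0.229), and its groups overlapped. ZNF274, which brings SETDB1 to the 3′ ends of zinc finger genes, had 57.2, 52 and 49.8 CPM with the MI-503 label, against 39, 41.3 and 60.4 CPM with the DMSO label (log2 fold change 0.30 with SE 0.20 and adjusted p = 0.208). Here DMSO replicate 3 lay above all MI-503 libraries, and without it the adjusted p was 0.0217 with a log2 fold change of 0.52. ZNF473, a part of the machinery that trims histone mRNA, had 15.7, 18.8 and 18.8 CPM with the MI-503 label, against 19.8, 18.4 and 24.8 CPM with the DMSO label (log2 fold change -0.12 with SE 0.19 and adjusted p = 0.594), again with overlap, and its log2 fold change was 0.0098 without DMSO replicate 3. ZNF808, needed for human pancreas development, had 13.4, 11.8 and 12.6 CPM with the MI-503 label, against 11.9, 8.45 and 11.6 CPM with the DMSO label (log2 fold change 0.36 with SE 0.22 and adjusted p = 0.185). The ranges of ZNF808 overlapped slightly.

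The other 4 called members of this kind follow. ZNF331, an imprinted gene, had 12.9, 9.87 and 9.85 CPM with the MI-503 label, against 26.2, 30.2 and 55.1 CPM with the DMSO label (log2 fold change -1.65 with SE 0.29 and adjusted p = 0.000764), with DMSO replicate 3 above the other DMSO libraries and no overlap. ZNF649, a KRAB repressor, had 2.23, 4.05 and 4.29 CPM with the MI-503 label, against 12.8, 8.09 and 11.7 CPM with the DMSO label (log2 fold change -1.52 with SE 0.32 and adjusted p = 0.00226), also without overlap. ZNF382, a KRAB repressor described as silenced by methylation in tumors, had 4.82, 7.85 and 6.55 CPM with the MI-503 label, against 11.3, 9.87 and 12.9 CPM with the DMSO label (log2 fold change -0.71 with SE 0.26 and adjusted p = 0.0329). ZNF224, a KRAB repressor of the aldolase A gene, had 13.9, 10.8 and 8.75 CPM with the MI-503 label, against 6.42, 5.95 and 9.38 CPM with the DMSO label (log2 fold change 0.75 with SE 0.28 and adjusted p = 0.041), and the groups of ZNF224 overlapped while those of ZNF382 did not. The call of ZNF382 was lost without MI-503 replicate 1 (adjusted p = 0.118) or 3 (0.088) or DMSO replicate 1 (0.0628) or 3 (0.0725), and that of ZNF224 without MI-503 replicate 1 (0.126) or 2 (0.077) or DMSO replicate 1 (0.0977) or 2 (0.141), all by edgeR. ZNF382 was also not called without a filter on low counts (0.0573) or on counts scaled by transcript length (0.128), nor was ZNF224 with upper-quartile scaling (0.0696).

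The predicted proteins, translated from GENCODE coding sequences, held a median of 12 C2H2 fingers by pattern (range 1 to 36), and 166 of 246 held the KRAB pattern near the amino terminus. Among 163 members with the KRAB pattern that were tested, 24 were higher and 61 lower (14.7% and 37.4%, beside 31.7% and 31.2% of all genes), with a median log2 fold change of -0.40. Among 77 without it, 13 were higher and 18 lower (16.9% and 23.4%), with a median of -0.10. Falls by a log2 fold change under -2 made up 6.13% of the members tested with the pattern and 7.79% of those without it, and these differences were not tested. All 7 members that were silent with 1 label carried the pattern. The pattern was a strict one and a divergent KRAB domain would be missed.

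Promoters of 300 bases (250 before and 50 after the start, RefSeq) were matched for 216 members. The median member had 20 CG dinucleotides, against 14 over all 27305 promoters of the table. Cluster 4 stood apart, with a median of 10 CG over 29 promoters, 62.1% of them with 10 or fewer, whereas members elsewhere had a median of 22 and 2.67% with 10 or fewer. The letters CCAAT, sought on both strands, were found at least 2 times in the 250 bases upstream of 69.0% of cluster 4 members, 11.2% of other members and 10.0% of all promoters. The longer run ATCCAATCA, which contains CCAAT and so overlaps with it, was found on either strand in 55.2% of cluster 4 members, 8.02% of other members and 0.520% of all promoters. A match is a description of the letters only. Members called higher had a median of 14 CG (29 promoters), members called lower 21 (71 promoters) and members not called 20 (110 promoters). Within cluster 4 the medians were 9.5 for the 4 higher members with a promoter, 10 for the 9 lower ones and 13 for the 15 not called. Each of these medians lay below the 22 of members elsewhere, and that of the members not called was close to the 14 of all promoters. Most of the silent genes there (ZNF728, ZNF98 and ZNF729) had no promoter in the table.

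**Figure D4:**
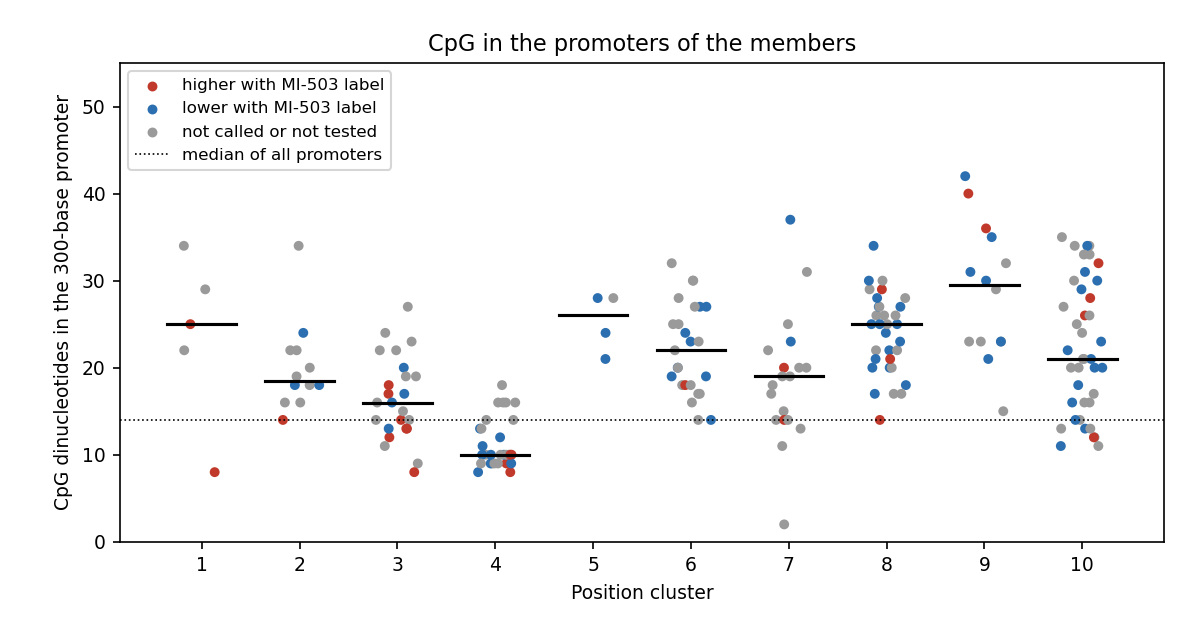
CG dinucleotides (CpG) in the 300-base promoter of each member with one, by position cluster 1 to 10, coloured by call (red higher, blue lower, grey not called or not tested), with a black bar at the median of each cluster and a dotted line at the median of all promoters (14). Points are spread sideways for visibility, and cluster 4 lies lowest, at a median of 10.

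Partners of KRAB zinc finger proteins moved in both directions. Of 23 genes for TRIM28, SETDB1, heterochromatin proteins, the HUSH complex and other chromatin partners, all were tested, and 8 were higher and 7 lower (34.8% and 30.4%, near the background), with a median log2 fold change of 0.23. TRIM28 itself had 297 ± 21.1 CPM with the MI-503 label and 607 ± 51.7 CPM with the DMSO label (SD, n = 3 each; log2 fold change -0.91, adjusted p = 0.000375, edgeR). The 4 smallest adjusted p-values belonged to the histone deacetylase genes HDAC2 (log2 fold change -1.56) and HDAC1 (-0.95), the HUSH subunit gene MPHOSPH8 (-1.02) and the heterochromatin protein gene CBX5 (1.22). TRIM28, DNMT1 and UHRF1 of this list lie on chromosome 19 as well, and of these DNMT1 was lower (log2 fold change -0.78) while UHRF1 was not called (0.23). A link between these genes and the members was not tested.

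The zinc finger genes of other chromosomes gave other counts. Of 262 genes of the same symbol pattern, 236 were tested, 72 were higher (30.5%) and 69 lower (29.2%), with a median log2 fold change of 0.04. Their summed level was 6705 ± 194 CPM with the MI-503 label and 6258 ± 489 CPM with the DMSO label (SD, n = 3 each), a log2 ratio of 0.10, and the libraries overlapped. Among 811 other protein-coding genes of chromosome 19 that were tested, 30% were higher and 30.7% lower, with a median of -0.06. Summed, the other protein-coding genes of the chromosome gave 55777 ± 1444 CPM with the MI-503 label and 74697 ± 3115 CPM with the DMSO label (SD, n = 3 each), without overlap and with a log2 ratio of -0.42. The lower sum of the members, at -0.46, was thus matched by a lower sum of the other genes of this chromosome. Abundant genes weigh most in such sums, and the prostate marker KLK3 lies on this chromosome. KLK3 averaged 0 CPM in the MI-503 libraries, against 3860 CPM in the DMSO libraries. Gene by gene, the rest of the chromosome had a median log2 fold change of -0.06, beside -0.28 for the members. The 3860 CPM of KLK3 are less than the gap between the sums of 55777 and 74697 CPM, and a ratio without KLK3 was not computed. The low share of higher calls was seen neither in zinc finger genes elsewhere nor in the rest of the chromosome, by these counts, and the difference between the groups of genes was not tested.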

How the data were processed

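RNA sequencing libraries of cells labelled T47D, with 4 µM MI-503 or DMSO for 24 hours by their labels, were made by a service company, and the authors quantified transcripts with salmon. The deposited files hold estimated counts of reads per transcript, not normalized, and TPM, which the authors' salmon run derived from these counts within each library. The effective transcript length deposited beside them was used for 1 alternative. The submitters' processing notes name GRCh38.p13 and hg38. Not given in the sources used here were the salmon version, the annotation and the strand setting.

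Transcript identifiers without version were matched to GENCODE release 44 (98.8% of transcripts, at least 99.16% of reads), then summed over 61279 genes and rounded. Libraries held 17404736 to 22168525 reads, with 1.38% to 7.18% mitochondrial. CPM are reads of a gene scaled to all reads in genes, with folds from TMM-scaled counts. Replicates were not duplicates. edgeR 4.0.16 in R 4.3.3 was used for the test (TMM, filterByExpr, quasi-likelihood F-test), DESeq2 1.42.0 as an alternative, and the steps were checked on simulated counts. Fold bounds use 3 reads over a group. Named members are those silent with 1 label, the 6 largest rises and 6 largest falls at 5 CPM or more without overlap, the 5 highest, the largest rise and fall of each cluster, and 9 with known roles. Further members are named after their values were seen. Members and lists were chosen with earlier results of these data known. Protein features come from GENCODE coding sequences in place of RefSeq proteins.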

Additional observations from a re-analysis of the deposited data

How the results depend on the processing

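Across all alternatives the members called higher numbered 28 to 39 and those called lower 61 to 89, and both extremes of the first range and the lowest of the second came from leaving out 1 library. Calls present in all 14 fits covered 25 higher and 49 lower members. Upper-quartile scaling shifted the median of all genes to -0.10 and gave 31 higher and 89 lower members, and at that scaling ZNF444 had a log2 fold change of -0.059. Without any one library, members lower by a log2 fold change under -2 ranged from 14 to 17, members higher by over 2 from 15 to 16, and the median log2 fold change of members from -0.33 to -0.22. Over the same fits ZNF473 ranged from -0.22 to 0.0098 and the MLL1 gene KMT2A from -0.016 to 0.59, both changing sign. The causes were not tested.

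With silence defined as 0 reads, 2 members (ZNF626 and ZNF69) were silent with the DMSO label, 2 with the MI-503 label (ZNF677 and ZNF728) and 1 with both (ZNF536), since single reads then count. ZNF729 left the DMSO list at an expression limit of 2 CPM and on deposited TPM, where ZNF90 joined it, and at 0.5 CPM ZNF208 joined the MI-503 list and ZNF99 the DMSO list. The summed level gave a log2 ratio of -0.29 on TPM and -0.34 on TMM-scaled CPM, against -0.46 on CPM. Position clusters numbered 12 with gaps of at most 250 kb and 9 with gaps of at most 1000 kb. For the single genes named, 561 values under alternatives kept their direction and side of the threshold, 33 lost the call, 1 gained it and 3 changed sign. Replicate numbers are shared between the labels, but same-numbered libraries did not deviate together (correlations of -0.098, 0.056 and -0.083 across genes). With 3 libraries per label these values cannot settle whether the numbers pair the libraries. A fit with the replicate block gave 32 higher and 73 lower members, and in it ZNF83, ZNF177, ZNF224 and ZNF382 were not called. Depth limits the members with a few reads, for which 1 read is 0.0455 to 0.0579 CPM.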

Other observations

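ZNF585A, a KRAB member of cluster 6, was the only member called in opposite directions by different fits, and it was singled out after its values were seen. It had 20.1, 17.3 and 13.3 CPM with the MI-503 label, against 15.1, 13.5 and 11.6 CPM with the DMSO label, so the ranges overlapped. By edgeR the log2 fold change was 0.46 (adjusted p = 0.103), and 0.64 without MI-503 replicate 3 (adjusted p = 0.0379). On counts scaled by transcript length it was -1.14 (adjusted p = 0.00219), and the deposited TPM averaged 10.2 with the MI-503 label and 24.1 with the DMSO label. Over the other alternatives the adjusted p ranged from 0.0769 to 0.214.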
